A study of Rattus norvegicus with 8 samples.

Results

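A set of astrocyte genes, 6 of the 32623 genes in the deposited count table, was followed in rat hippocampus. They were Gfap (ENSRNOG00000002919), Vim (ENSRNOG00000018087), S100b (ENSRNOG00000001295), Aqp4 (ENSRNOG00000016043) and the glutamate transporters Slc1a2 (ENSRNOG00000005479) and Slc1a3 (ENSRNOG00000016163). The genes were chosen by name, as a standard set of astrocyte markers, and read from the table by Ensembl ID. Earlier results of these data were known when they were chosen. Hippocampal tissue was taken at 32 weeks of age from spontaneously hypertensive rats (SHR), inbred animals whose blood pressure rises with age, and from Wistar-Kyoto rats (WKY), the strain used as its normotensive control. RNA sequencing gave 4 libraries of each strain, with no drug or genetic change named in the labels beyond the strain. The comparison asks how hippocampal gene expression in the hypertensive strain departs from that of its control. The labels do not say whether each library came from its own animal, so the p-values reflect only how these libraries vary, and part of that may be technical.

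Astrocytes are the glial cells that clear glutamate from synapses, buffer potassium and water, and line brain vessels with their end-feet. GFAP and vimentin are intermediate filament proteins of the astrocyte skeleton, and both are known to rise when astrocytes react to injury. S100B is a calcium-binding protein of astrocytes and of some oligodendrocytes, and aquaporin-4 is the water channel of the end-feet. Slc1a2 encodes GLT-1, which carries most glutamate uptake in the forebrain, and Slc1a3 encodes GLAST, the related transporter of the same cells. Vimentin is also made by endothelial and ependymal cells. The files name genes by Ensembl ID only, and the reference table paired 0 IDs with a symbol. Markers of other cell types and of hippocampal neurons were therefore not read, and the part of other cells in the values below was not tested. In whole tissue, fewer astrocytes and less RNA per astrocyte cannot be told apart.

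The library totals were 45048841 to 49560687 counts in SHR and 53045139 to 53699673 in WKY, and the strains did not overlap (two-sided exact permutation p = 0.0286, the lowest possible for 4 against 4; adjusted p = 0.0571 over 2 library measures). Depth and any step of preparation that went with it cannot be told apart from strain. Levels are given as CPM, counts relative to the scaled library total, after correction by the trimmed mean of M values (TMM). Over all genes, WKY replicate 4 stood apart from the other WKY libraries. With it 6 of 16867 genes differed between the strains (0.0356%), and without it 458 of 17029 did (2.69%), by edgeR's quasi-likelihood test at an adjusted p under 0.05. The strain comparison of each gene is therefore given with and without this library, which was singled out with these results known. The table is counted per gene and not per length, so levels are compared between libraries and not between genes.

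The promoter sequences of Gfap, S100b and Slc1a2 are shown because these 3 genes had the largest fold changes of the set without WKY replicate 4, Gfap and S100b in one direction and Slc1a2 in the other. Each is the 250 bases before the gene's annotated start, 5′ to 3′ on the gene's strand, from RefSeq on build GRCr8. The counts were made on build rn6, and no position was carried between the builds. For Slc1a2 the first of its 2 annotated starts is shown. The positions are chr10:88361662-88361911 on the minus strand for Gfap, chr20:12381082-12381331 on the minus strand for S100b and chr3:109459859-109460108 on the plus strand for Slc1a2. Capitals mark every match to a searched motif on either strand.
Gfap: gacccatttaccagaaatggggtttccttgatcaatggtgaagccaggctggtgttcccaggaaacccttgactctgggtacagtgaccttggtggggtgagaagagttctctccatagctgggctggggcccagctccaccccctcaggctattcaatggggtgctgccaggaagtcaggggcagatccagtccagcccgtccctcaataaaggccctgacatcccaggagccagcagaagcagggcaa
S100b: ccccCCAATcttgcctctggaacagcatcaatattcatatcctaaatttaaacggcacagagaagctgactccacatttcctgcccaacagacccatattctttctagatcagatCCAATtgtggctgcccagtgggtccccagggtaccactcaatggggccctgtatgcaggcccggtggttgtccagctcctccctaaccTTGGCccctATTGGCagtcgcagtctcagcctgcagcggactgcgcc
Slc1a2: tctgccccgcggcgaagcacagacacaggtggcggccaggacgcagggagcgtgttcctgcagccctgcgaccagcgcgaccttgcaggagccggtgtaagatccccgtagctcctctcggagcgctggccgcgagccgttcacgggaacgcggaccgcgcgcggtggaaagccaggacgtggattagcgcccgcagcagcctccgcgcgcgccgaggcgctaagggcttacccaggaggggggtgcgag
The motifs searched were TATAAA, at which TBP binds, CCAAT, the motif of NF-Y, GGGCGG, the motif of Sp1, TTCNNNGAA, that of the STAT factors, and TTGGC, that of nuclear factor I. The last can overlap with a reverse match to CCAAT. The S100b window held 3 matches to CCAAT and 2 to TTGGC, of which 1 of each overlap near its 3′ end. CCAAT was present in 34.02% and TTGGC in 40.3% of the 33469 promoter windows of this length, so neither is rare. TATAAA was present in 12.9%, GGGCGG in 30.5% and TTCNNNGAA in 7.67% of them. The Gfap window and the Slc1a2 window shown held none of the 5 motifs, and the window of the other Slc1a2 start held 1 match to TTGGC. The GC share was 57.6% for Gfap, 54.8% for S100b and 71.2% for Slc1a2, against a median of 51.2% over all windows. All 6 genes had at least 1 window in the table.

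S100b had the largest strain difference of the 6. In WKY replicates 1, 2, 3 and 4 its level was 1538, 1622, 1553 and 978 CPM. In SHR replicates 1, 2, 3 and 4 it was 1025, 837, 944 and 929.6 CPM. WKY replicates 1 to 3 lay together above all SHR libraries, and WKY replicate 4 lay inside the SHR range, so the strains overlapped. The mean ± SD (n = 4) was 934 ± 77.1 CPM for SHR and 1423 ± 299 CPM for WKY. The log2 fold change, SHR relative to WKY, was -0.61 ± 0.15 (SE; 95% interval -0.94 to -0.28), which did not pass over all genes (edgeR, adjusted p = 0.211). Without WKY replicate 4, S100b fell by 0.75 ± 0.08 on the log2 scale in SHR, or 1.68-fold (edgeR, adjusted p = 0.00161). The WKY mean of the 3 libraries left was 1571 ± 45.2 CPM (SD, n = 3), a spread of 2.88% of the mean.

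Gfap, the filament gene most used to mark astrocytes, had the same arrangement of libraries. Its level was 902, 981, 897 and 612 CPM in WKY replicates 1, 2, 3 and 4. It was 628, 692, 584 and 632 CPM in SHR replicates 1, 2, 3 and 4. WKY replicate 4 was again inside the SHR range, and the other WKY libraries were above it. The mean ± SD (n = 4) was 634 ± 44.7 CPM for SHR and 848 ± 162 CPM for WKY, with a log2 fold change of -0.42 ± 0.13 (SE) that did not pass (edgeR, adjusted p = 0.274). Without WKY replicate 4, Gfap fell by 0.55 ± 0.08 on the log2 scale in SHR, or 1.46-fold (edgeR, adjusted p = 0.00949), from 927 ± 47.2 CPM in WKY (SD, n = 3). With a further library left out beside WKY replicate 4, S100b was called in 7 of 7 cases, at -0.80 to -0.70 (edgeR, adjusted p up to 0.0159). Gfap was called in 6 of 7, at -0.59 to -0.50, and missed the threshold without WKY replicate 2 (edgeR, adjusted p = 0.0614). The share of all genes called in these fits was not counted. The fits were chosen after the data were seen. All of them leave out WKY replicate 4 and they share libraries, so they are not independent. WKY replicate 4 held 66.0% of the mean of the other WKY libraries for Gfap and 62.3% for S100b.

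Gfap and S100b were thus the 2 of 6 genes called without WKY replicate 4, both lower in SHR, where 1.53% of all genes tested were called lower. They were the 2 whose SHR and WKY ranges did not overlap once that library was left out. It was the only WKY library inside the SHR range for both genes, so this restates their levels and is not further support. Of all genes, 9.08% had such non-overlapping ranges with SHR lower. Over all 8 libraries none of the 6 was called by edgeR and none had ranges that did not overlap, against a background of 6.72%. At an unadjusted p under 0.05, 3 of the 6 were lower in SHR over all 8 libraries (Gfap, S100b and Vim), where 7.24% of all genes were. DESeq2 called S100b over all 8 libraries (adjusted p = 0.00742) and did not call Gfap (adjusted p = 0.0889). Limma-voom called neither, at adjusted p-values of 0.237 for S100b and 0.297 for Gfap.

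**Figure D1:**
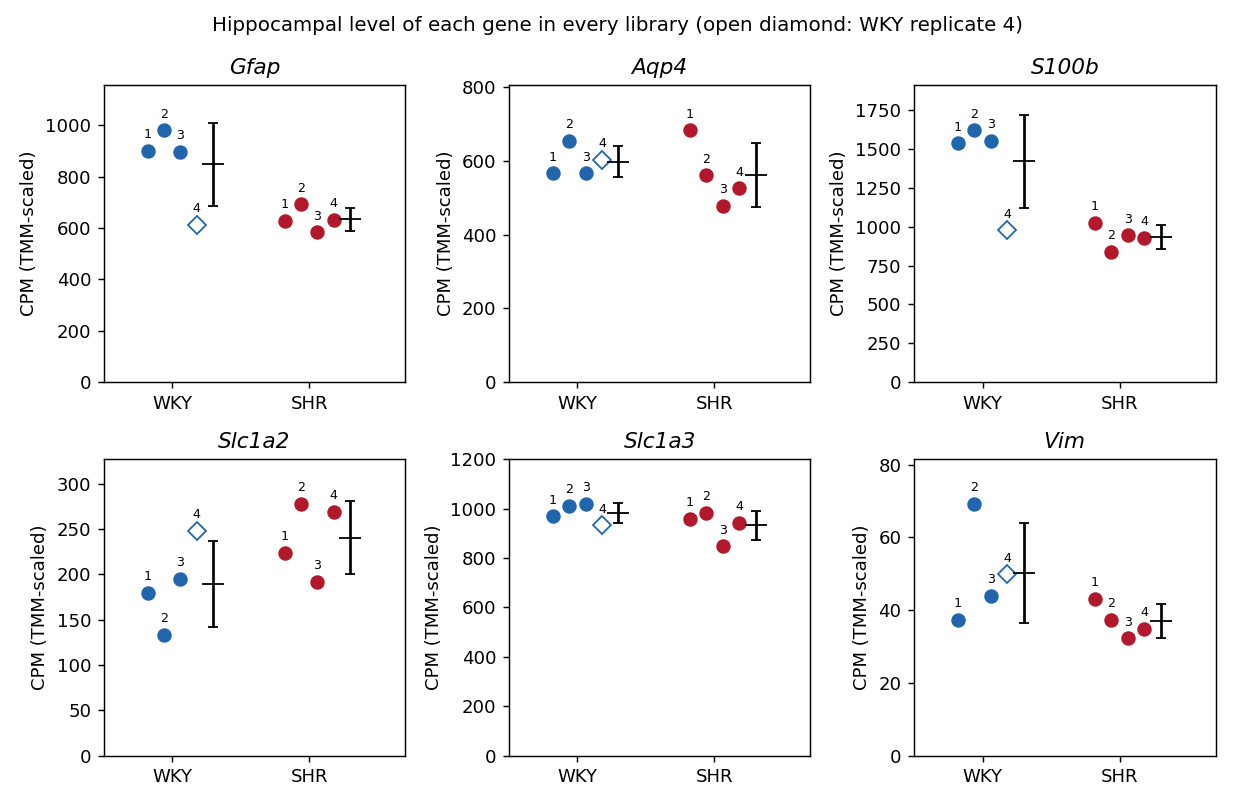
TMM-scaled CPM of each gene in the 4 WKY and 4 SHR libraries, numbered by replicate, with the mean and SD of each strain at the right of its points and all axes from 0. WKY replicate 4 (open diamond) lies within the SHR range for Gfap at 612 CPM and S100b at 978 CPM, while the other WKY libraries lie above all SHR libraries for these genes.

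Vim, the other filament gene, had another arrangement of libraries than Gfap. It was at 37.3, 69.2, 44.0 and 49.9 CPM in WKY replicates 1, 2, 3 and 4. In SHR replicates 1, 2, 3 and 4 it was at 43.2, 37.4, 32.3 and 34.8 CPM. WKY replicate 2 was the highest library, WKY replicate 1 lay among the SHR libraries, and WKY replicate 4 lay above all of them. The log2 fold change was -0.44 ± 0.18 (SE; 95% interval -0.83 to -0.05; edgeR, adjusted p = 0.365). It was the same to 2 decimals without WKY replicate 4 (edgeR, adjusted p = 0.271), and -0.24 ± 0.13 without WKY replicate 2 (edgeR, adjusted p = 0.730). WKY replicate 2 thus carried a large part of the difference in Vim. Vim had the fewest counts of the set, 1652 to 3636 per library.

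Slc1a2 was the one gene of the 6 with a higher mean in SHR. Its level was 179.8, 133, 195 and 248 CPM in WKY replicates 1, 2, 3 and 4. In SHR replicates 1, 2, 3 and 4 it was 223, 277, 192 and 269 CPM. WKY replicate 4 lay with the high SHR libraries, and SHR replicate 3 lay below WKY replicate 3, so the strains overlapped with or without WKY replicate 4. The mean ± SD (n = 4) was 240.4 ± 40.2 CPM for SHR and 188.9 ± 47.3 CPM for WKY, a log2 fold change of 0.35 ± 0.18 (SE; 95% interval -0.05 to 0.75; edgeR, adjusted p = 0.481). Without WKY replicate 4 it was 0.51 ± 0.16 (SE; 95% interval 0.16 to 0.86), which edgeR did not call (adjusted p = 0.131) and DESeq2 did (adjusted p = 0.0264). With SHR replicate 3 left out as well, Slc1a2 was at 0.61 ± 0.14 and was called (edgeR, adjusted p = 0.0409). That was its 1 call in the 7 fits that left out a further library beside WKY replicate 4. Without WKY replicate 2, the lowest library, the log2 fold change over the other 7 libraries was 0.22 ± 0.15 (edgeR, adjusted p = 0.795).

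Slc1a3 varied least of the set. The WKY libraries 1, 2, 3 and 4 were at 968, 1011, 1018.5 and 932 CPM. The SHR libraries 1, 2, 3 and 4 were at 959, 983, 848 and 941 CPM. The highest library was 1.20 times the lowest, against 1.94 times for S100b, 2.08 times for Slc1a2 and 2.14 times for Vim. Its log2 fold change of -0.08 ± 0.08 (SE) did not pass (edgeR, adjusted p = 0.737), and the 95% interval ran from -0.24 to 0.09. Without WKY replicate 4 the interval was -0.27 to 0.08. The fold changes of the 2 transporters had opposite signs, and edgeR called neither over all 8 libraries or without WKY replicate 4 alone.

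Aqp4, the water channel, was at 566, 655, 566 and 602 CPM in WKY replicates 1, 2, 3 and 4. It was at 683, 561, 478 and 526 CPM in SHR replicates 1, 2, 3 and 4. The highest and the lowest library of all 8 were both SHR. The log2 fold change was -0.09 ± 0.11 (SE; 95% interval -0.34 to 0.16; edgeR, adjusted p = 0.802). It stayed at -0.08 ± 0.12 without WKY replicate 4 (edgeR, adjusted p = 0.786). Without SHR replicate 1, the highest library, it was -0.19 ± 0.09 (edgeR, adjusted p = 0.468), and without SHR replicate 3, the lowest, it was -0.01 ± 0.11 (edgeR, adjusted p = 0.986). The value for Aqp4 thus depends on which SHR library is kept, and it passed the test in none of 18 alternatives.

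**Figure D2:**
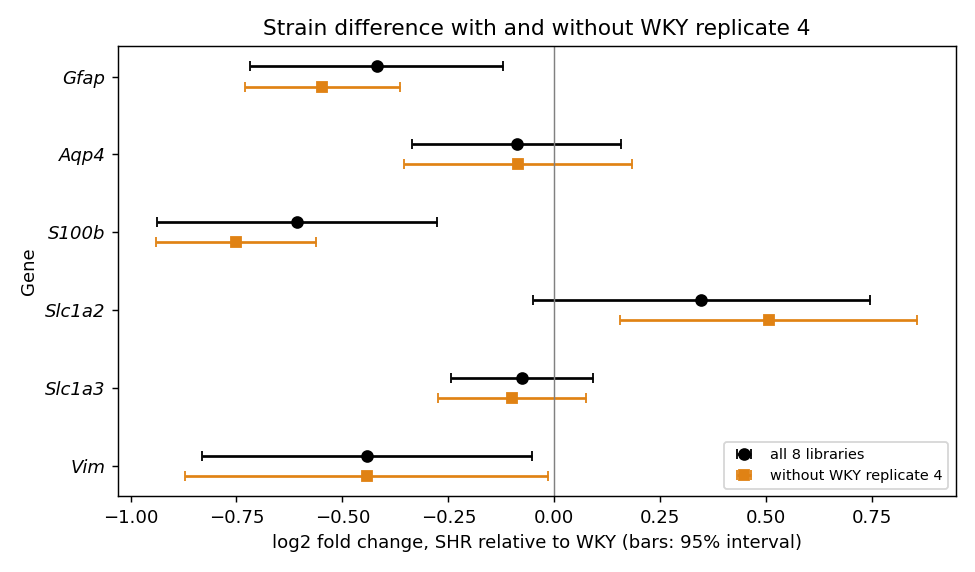
Log2 fold change of each gene, SHR relative to WKY, with its 95% interval from edgeR, over all 8 libraries (black circles) and without WKY replicate 4 (orange squares). S100b moves from -0.61 to -0.75 and Gfap from -0.42 to -0.55, while the intervals of Aqp4 and Slc1a3 include 0 in both fits.

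Over the 6 genes the median log2 fold change was -0.25 with all 8 libraries and -0.27 without WKY replicate 4, beside medians of -0.00435 and -0.000653 over all genes tested. Of the 6, 5 had a negative fold change in both fits, against 50.8% and 50.1% of all genes. Among the genes at least as abundant as Vim in each fit, 45.5% and 47.7% had one. The set was chosen with earlier results of these data known, so these shares are descriptions. By average CPM, which takes no account of gene length, the genes were among the higher of those tested. Vim stood at the 72.3rd percentile of average level, Slc1a2 at the 95.5th, and the other 4 at the 98.9th or above.

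The scatter of replicates around their strain mean, as edgeR's biological coefficient of variation, was read with and without WKY replicate 4. With all 8 libraries it was 0.157 for S100b and 0.144 for Gfap, above the 0.134 and 0.133 that edgeR's trend gave for genes of like abundance. Without WKY replicate 4 it fell to 0.0915 and 0.0900, below the trend of 0.111 for both. For Vim it was 0.183 and then 0.185, and for Aqp4 0.124 and then 0.121. The scatter of Vim and Aqp4 was thus close to the same with and without that library, whose level was inside the range of WKY replicates 1 to 3 for these 2 genes. For Gfap, S100b, Slc1a2 and Slc1a3 its level was outside that range and inside the range of the SHR libraries. The share of all genes with this arrangement was not counted. Over all genes tested, WKY replicate 4 also lay on the SHR side of the first principal component. It was at -36.7 there, beyond every SHR library (-28.9 to -11.5). On the second component it was at -46.0, below every other library of both strains.

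Ratios of counts within a library do not depend on the scaling between libraries. The ratio of S100b to Slc1a3 was 1.59, 1.604, 1.52 and 1.05 in WKY replicates 1, 2, 3 and 4. In SHR replicates 1, 2, 3 and 4 it was 1.07, 0.851, 1.11 and 0.988. The ratio of Gfap to Aqp4 was 1.59, 1.498, 1.58 and 1.02 in those WKY libraries, and 0.919, 1.23, 1.22 and 1.20 in the SHR libraries. In both ratios WKY replicates 1 to 3 were above every SHR library and WKY replicate 4 was within the SHR range.

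The ratio of the glutamate transporters, Slc1a2 to Slc1a3, was 0.186, 0.132, 0.191 and 0.266 in WKY replicates 1, 2, 3 and 4. It was 0.233, 0.282, 0.226 and 0.286 in SHR replicates 1, 2, 3 and 4. WKY replicates 1 to 3 were all below the SHR libraries in this ratio, and WKY replicate 4 was among them. The ratio of S100b to Gfap was 1.599 to 1.73 in all 4 WKY libraries, WKY replicate 4 included, and 1.21 to 1.63 in SHR. Gfap and S100b were lower in WKY replicate 4 in nearly equal proportion. Within SHR they did not go together: SHR replicate 2 had the highest Gfap and the lowest S100b of its strain. In other ratios computed, the strains overlapped with or without WKY replicate 4. Vim to Gfap was 0.0413 to 0.0816 in WKY, highest in WKY replicate 4, and 0.0540 to 0.0688 in SHR. Slc1a3 to Aqp4 was 1.54 to 1.80 in WKY and 1.40 to 1.79 in SHR. These ratios are descriptions chosen after the values were seen and carry no test.

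**Figure D3:**
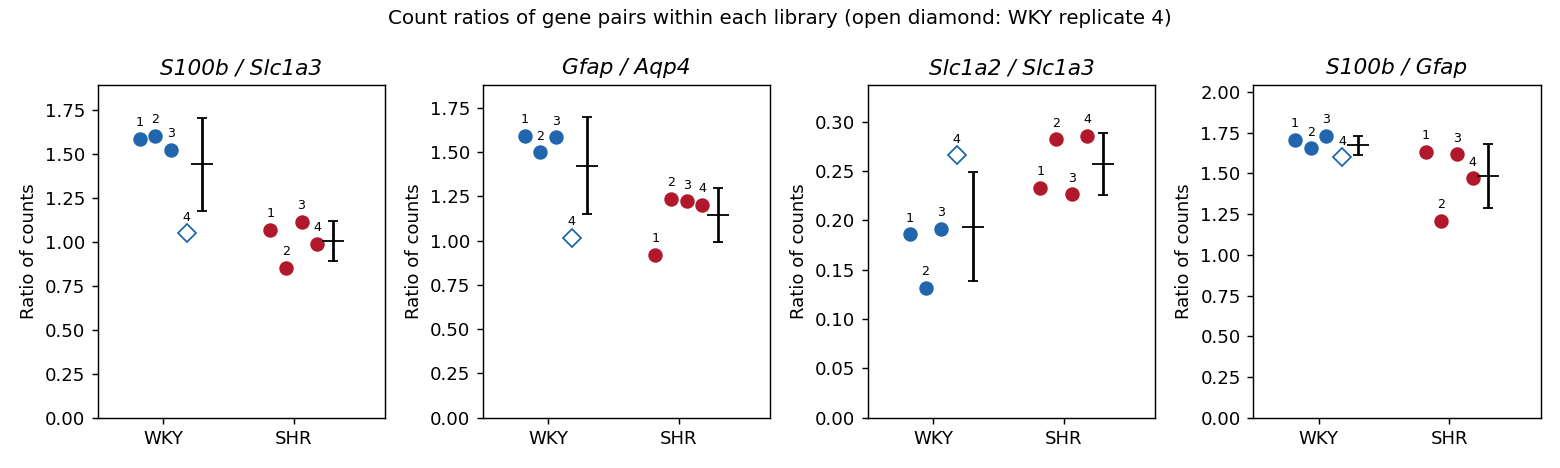
Ratios of counts within each library for 4 pairs of genes, with each strain's mean and SD at the right of its points and all axes from 0. WKY replicate 4 (open diamond) lies with SHR for S100b to Slc1a3 at 1.05, Gfap to Aqp4 at 1.02 and Slc1a2 to Slc1a3 at 0.266.

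Whether the genes vary together was examined on log2 CPM over the 8 libraries in all 15 pairs, with exact permutation p-values adjusted over the 15. No pair passed at an adjusted p under 0.05, with or without WKY replicate 4. Before adjustment 4 had an exact permutation p for Pearson's r under 0.05, 3 of them pairs with Gfap or S100b, and 5 did without WKY replicate 4, 4 of them such pairs. For Gfap and S100b the libraries form separate clusters, WKY replicates 1 to 3 and the other 5, and neither cluster has the 6 libraries a correlation needs, so no value is given for pairs with these genes. Among the other 4 genes the closest pair was Aqp4 and Vim. Its Pearson r was 0.753 (exact permutation p = 0.0315, adjusted 0.118) and its Spearman rho 0.762 (exact permutation p = 0.0368, adjusted 0.184). Without the 2 libraries farthest from the median of Aqp4, SHR replicates 1 and 3, r was 0.959. This pair had, without WKY replicate 4, r of 0.748 (exact permutation p = 0.0452, adjusted 0.141) and rho of 0.750 (exact permutation p = 0.0663, adjusted 0.249). For the 2 transporters no correlation was detected, with r of -0.220 (exact permutation p = 0.592, adjusted 0.592), rho of -0.214 (exact permutation p = 0.619, adjusted 0.663) and r of -0.0371 without SHR replicate 2 and WKY replicate 2. Their r without WKY replicate 4 was -0.180 (exact permutation p = 0.688, adjusted 0.688) and their rho -0.179 (exact permutation p = 0.713, adjusted 0.713).

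Among the 10460 other genes whose log2 CPM averaged 3 or more, likeness was measured as Pearson's r, over the 8 libraries, with the mean of the 6 genes' standardised levels. That mean was highest in WKY replicate 2 (0.83) and lowest in SHR replicate 3 (-1.15), and SHR replicate 1 (0.13) lay near WKY replicate 1 (0.18). Slc1a2 entered the mean with the same sign as the others, though its fold change was opposite. The mean is thus not a profile that all 6 genes share. The closest genes were ENSRNOG00000020901 (r = 0.985, rho = 0.929) and ENSRNOG00000055567 (r = 0.983, rho = 0.952), which the files give no symbol. For these genes r was 0.986 and 0.985 without WKY replicate 4, and rho was 0.964 for both. They were picked as the highest of many, so these values are a description. ENSRNOG00000020901 averaged 26.6 CPM over the SHR and 37.7 CPM over the WKY libraries, and ENSRNOG00000055567 at 42.6 and 47.1 CPM (n = 4 each).

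The direction of each gene's difference was the same in all 18 alternatives tried, which share libraries and are not independent. For Aqp4 and Slc1a3 the smallest differences were within their SE. Without SHR replicate 3 they were -0.01 ± 0.11 and -0.02 ± 0.07 (SE). S100b passed the test in 5 of the 18, with log2 fold changes over all 18 from -0.75 to -0.53. With all 8 libraries it passed only by DESeq2, which called 329 of 19031 genes, and by limma-voom with quality weights. Those weights were lowest for WKY replicate 4 (0.467). The other passes of S100b were without that library. Gfap passed in 3, all of them without WKY replicate 4, with log2 fold changes over all 18 from -0.55 to -0.34. Slc1a2 passed in 1, from 0.22 to 0.54. Vim (-0.56 to -0.24), Aqp4 (-0.19 to -0.01) and Slc1a3 (-0.10 to -0.02) passed in none.

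**Figure D4:**
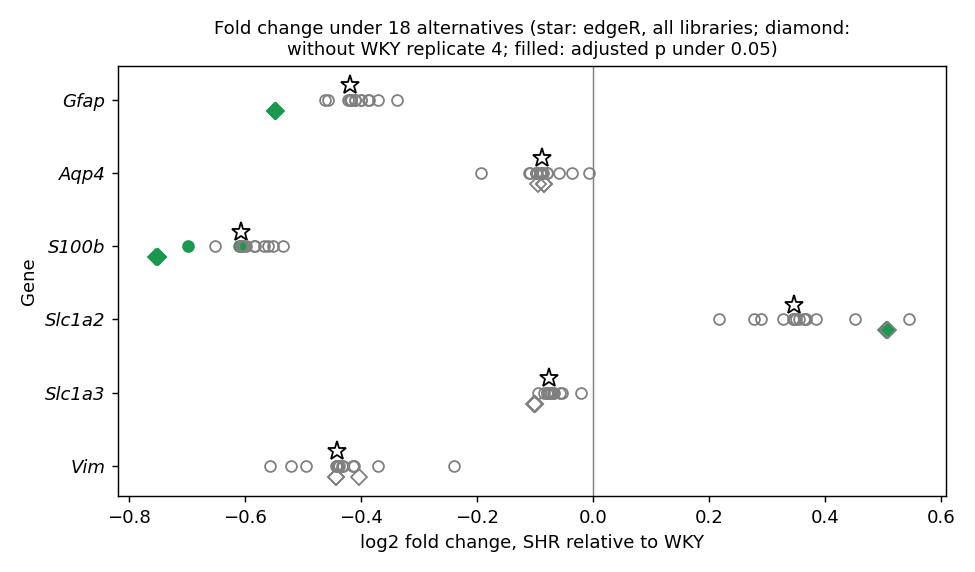
Log2 fold change of each gene, SHR relative to WKY, over all 8 libraries with edgeR (star) and under 18 alternatives (circles, and diamonds for the 3 without WKY replicate 4), filled green where the adjusted p was under 0.05. Every filled point belongs to S100b, Gfap or Slc1a2, and no gene crosses 0; the 3 diamonds of Slc1a2 nearly coincide and 1 of them is filled.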

How the data were processed

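RNA of 8 hippocampal libraries, 4 SHR and 4 WKY, was measured. The authors deposited raw read counts per Ensembl gene, as 1 matrix and as 8 single-library tables that held the same values. The tools named by the submitters' processing notes are StringTie 1.3.4d, HISAT2 2.0.4 and cutadapt 1.9, and the build is rn6. For the strand setting and the annotation release, the answer is not given in the sources used here. Strain and replicate number came from the sample titles. Per the file headers, 4 single-library tables carry other numbers (5 and 6 for WKY replicates 3 and 4, and 4 and 6 for SHR replicates 3 and 4).

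The members and gene lists were chosen with earlier results of these data known. The symbols of the 6 genes were supplied with the set. All 6 passed the filter on low counts. The 11 lists of other astrocyte, glutamate and cell type genes could not be matched to IDs, so 0 were run. The genes named were the 6 members and, for likeness, at most 2 by ID.

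All genes were tested with edgeR 4.0.16 (R 4.3.3), quasi-likelihood F test, TMM scaling, default filterByExpr and strain as the only term. P-values were Benjamini-Hochberg adjusted over all genes tested, with calls at an adjusted p under 0.05. The standard error was the fold change divided by the square root of F. Log2 CPM carried a prior count of 2. Alternatives were RLE scaling, 2 other filters, DESeq2 1.42.0, limma-voom (limma 3.58.1) with and without quality weights, robust empirical Bayes, a replicate block and each library left out. The quasi-likelihood fit was tested on simulated data. Libraries of one strain differed by a chi-square per degree of freedom of at least 15.5, so none was treated as a duplicate. That lowest value was for SHR replicates 2 and 4, and the next lowest, for WKY replicates 2 and 3, was 34.7.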

Additional observations from a re-analysis of the deposited data

Results flagged for a closer look

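Of 16 sets of 4 libraries screened (each gene's CPM, the totals and the number of genes detected, by strain), 1 held a library far from the rest, where chance picks about 1 in 20. It was S100b in WKY, where WKY replicate 4 was at 978 CPM and the other WKY libraries at 1538 to 1622 CPM. The same library held the lowest Gfap of its strain, at 612 CPM, which did not pass that screen. The sets share libraries and are not independent.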

How the results depend on the processing

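By edgeR over all 8 libraries 0 of the 6 genes were called, and 3 had an unadjusted p under 0.05. DESeq2 and limma-voom with quality weights called 1 each (S100b), and edgeR with 1 library left out called 0 to 2, the highest without WKY replicate 4. Without that library, DESeq2 called 3 and limma-voom 2. Over all genes, edgeR called 6, against 3 with no low-count filter, 329 with DESeq2, 230 with quality weights, 1 with the replicate block, 1 to 458 with 1 library left out, and, without WKY replicate 4, 1162 with DESeq2 and 436 with limma-voom. Quality weights were lowest for WKY replicate 4 (0.467) and SHR replicate 3 (0.537). The cause of these shifts was not tested. The replicate numbers are not said to pair animals, and same-numbered libraries had deviations correlated from -0.157 to -0.00338. With the replicate block the log2 fold change was -0.58 for S100b (edgeR, adjusted p = 0.422) and -0.40 for Gfap (edgeR, adjusted p = 0.494). With 1 library left out, a check made with results known, 0 to 1 of 15 pairs of genes were correlated at an adjusted p under 0.05. The pair was Aqp4 and Vim without SHR replicate 1. Without SHR replicate 3 it was a pair with S100b, whose libraries form separate clusters, so it is not read as a correlation. The difference in library totals (SHR minus WKY) was -6282240 counts, and -7117020 to -5613070 with 1 library left out, where the exact permutation p cannot go below 0.0571. The gene lists could not be run under any setting.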
